A study of Mus musculus with 8 samples.

Results

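The genes examined were the 7 inhibitors of cyclin-dependent kinases and the 3 D-type cyclins, 10 genes in all: Cdkn2a, Cdkn2b, Cdkn2c and Cdkn2d of the INK4 family, Cdkn1a, Cdkn1b and Cdkn1c of the Cip/Kip family, and Ccnd1, Ccnd2 and Ccnd3. Every non-control probe whose transcript accession maps to one of these symbols was taken, which gave 14 probes for 10 of 10 genes, out of 39378 probes analysed and 20125 named genes. The family was chosen by the array signal of Cdkn2a, whose low value in pro-B(+) relative to pro-B(-) cells was already known. For that reason the comparison of these lines is given for the 10 genes as values without a test.

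The study profiled 8 one-colour arrays of total RNA from Ebf1-deficient pro-B cell lines, mouse fetal liver progenitors (mid-gestation embryos of both sexes, depleted of TER119+ and Gr-1+ cells) without EBF1, a transcription factor of the B lineage. All lines grew on stromal cells with mSCF, hFlt3L and mIL7. Pro-B(+) cells were maintained on OP9, a stromal line from fetal calvaria of op/op mice, and have T-cell potential; pro-B(-) cells were maintained on TD7, a mesenchymal line from fetal thymus, and have none. Pro-B(-)/Mock cells carried the empty lentiviral vector pLVS-EF-IR2, which expresses rat CD2, and pro-B(-)/LMO2 cells carried the same vector with mouse Lmo2. There were 2 arrays per group. Each of pro-B(+) and pro-B(-) is described as 1 line. The study calls the data of these parental lines independent biological replicates, without saying what was repeated. For the transduced cells neither the kind of replicate nor the stromal cells used before RNA extraction were given in the sources used here. In all comparisons p-values measure only the spread between arrays, which may be technical. Between the parental lines they set 1 line against 1 line, and do not measure how lines with or without T-cell potential vary. Pro-B(+) and pro-B(-) arrays were on 1 slide and the Mock and LMO2 arrays on the other, so that in any comparison of Mock with pro-B(-) cells the vector and the slide cannot be told apart. Orders of all 4 groups below also set groups of different slides side by side, where group and slide cannot be told apart either.

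Progression from G1 into S phase depends on CDK4 and CDK6, which are activated by D cyclins and phosphorylate the retinoblastoma protein. INK4 proteins bind CDK4 and CDK6 and keep D cyclins from activating them, whereas Cip/Kip proteins act mainly on CDK2 complexes and can also help assemble cyclin D complexes. Cdkn2a encodes p16Ink4a and, from another first exon and reading frame, p19Arf, which binds MDM2 and stabilizes p53. The locus is kept low in stem and progenitor cells by Polycomb proteins such as BMI1 and is known to rise when mouse cells adapt to culture.

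The labels were first checked. Lmo2 had a normalized log2 signal (log2 of the background-subtracted intensity, with 0 at the 75th percentile of each array) of 0.99 and 0.93 in the LMO2 arrays and 0.35 and 0.35 in the Mock arrays, 1.53-fold higher (adjusted p = 3.8e-05, limma), and 2.09 and 2.10 in pro-B(+) cells. The single Ebf1 probe was well above background on all 8 arrays (1.12 to 1.53), and whether it lies in the deleted part was not known, so it checks nothing. Of 13 pro-B and progenitor markers, Ptprc, Kit, Flt3 and Il7r were among those well above background on all 8. Cd79a was so on 4 arrays, Igll1 on 5 and Cd79b on 6. The levels of these markers varied between groups. Kit averaged 0.68 in pro-B(+), -1.56 in pro-B(-), -0.04 in Mock and 1.51 in LMO2 arrays. Between the parental lines, pro-B(+) cells had less of 7 and more of 2 of the 13 (adjusted p under 0.05, limma). Between LMO2 and Mock cells, 7 of 12 tested were lower and 3 higher, from -2.78 (Rag1) to 4.02 (Dntt). Among all genes tested, 27.1% were called lower and 25.6% higher between the parental lines, and 37.8% and 31.1% between LMO2 and Mock cells. The share of probes well above background was 56.5% to 61.2%. Replicate arrays correlated at r of at least 0.999 over 20376 probes and differed with an SD of 0.13 to 0.15 log2 units. In this bulk RNA, fewer cells of a type and less RNA per cell cannot be told apart.

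Both products of Cdkn2a and the neighbouring Cdkn2b are shown by the 250 bases upstream of their starts, because these genes lie next to each other and yet differed in direction below. Sequences are from RefSeq (GRCm38.p6, minus strand, 5′ to 3′). Capitals mark GC boxes (GGGCGG or its complement) and the E2F-type letters TTTCCCGC or TTTGGCGC, searched on both strands; none of the marked matches overlap.
Cdkn2a upstream start (p19Arf), chr4:89294620-89294869: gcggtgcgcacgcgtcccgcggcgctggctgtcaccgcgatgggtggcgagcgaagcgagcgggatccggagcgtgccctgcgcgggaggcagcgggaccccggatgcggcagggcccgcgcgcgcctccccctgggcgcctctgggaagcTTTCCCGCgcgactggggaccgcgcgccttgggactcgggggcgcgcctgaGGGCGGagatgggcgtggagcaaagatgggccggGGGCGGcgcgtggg
Cdkn2a downstream start (p16Ink4a), chr4:89282193-89282442: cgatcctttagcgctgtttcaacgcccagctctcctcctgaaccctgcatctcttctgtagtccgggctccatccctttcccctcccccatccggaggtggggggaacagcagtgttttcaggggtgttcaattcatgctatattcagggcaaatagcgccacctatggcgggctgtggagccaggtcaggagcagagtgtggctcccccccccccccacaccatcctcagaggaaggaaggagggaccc
Cdkn2b, chr4:89311033-89311282: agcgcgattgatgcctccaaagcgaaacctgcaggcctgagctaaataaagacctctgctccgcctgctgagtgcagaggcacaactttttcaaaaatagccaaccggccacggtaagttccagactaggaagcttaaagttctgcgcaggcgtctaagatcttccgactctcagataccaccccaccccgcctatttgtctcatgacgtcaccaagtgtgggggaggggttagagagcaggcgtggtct
The upstream Cdkn2a window held 2 GC boxes and 1 TTTCCCGC match at a GC content of 78.4%, and the other windows held none of the marked letters at 60.0% and 53.6%. Among 32851 such windows, 32.7% held a GC box, 0.895% TTTCCCGC and 0.417% TTTGGCGC. A match is a description of the letters and not a bound site. Both Cdkn2a probes are annotated to the p19Arf transcript, which shares exons with the p16Ink4a transcript, and the position of the probes in it was not given, so the values below are not assigned to either product.

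Cdkn2a was high in pro-B(-) cells, somewhat lower in Mock cells (on the other slide), lower again in LMO2 cells, and lowest in pro-B(+) cells. Probe 1 read -3.07 and -2.80 in pro-B(+), 0.98 and 1.15 in pro-B(-), 0.23 and 0.28 in Mock, and -1.29 and -1.31 in LMO2 arrays. No groups overlapped, and LMO2 cells lay between Mock and pro-B(+) cells. Relative to Mock, the Lmo2-transduced cells had 2.93-fold less Cdkn2a signal (log2 difference -1.55, SE 0.10, adjusted p = 5.6e-05, limma). Pro-B(+) cells had 16.0-fold less than pro-B(-) cells (log2 difference -4.00, SE 0.10, or -3.31 with another background correction, normexp), a description, since this value chose the family. Mock cells had 1.75-fold less than pro-B(-) cells (-0.81, SE 0.10), also as a description. The dimmer probe 2 was well above background only in the pro-B(-) arrays (-3.86 and -3.50) and the Mock arrays (-5.06 and -4.71). It was at least 2.19-fold lower in LMO2 than in Mock cells, and pro-B(+) cells lay at least 4.17-fold under pro-B(-) cells. These bounds set the brighter group against the lowest signal that counted as well above background on each dim array. Normexp adds a constant offset to every spot, which shrinks the differences of dim probes, so it cannot test these bounds. With normexp the log2 difference of probe 2 was -0.16 between LMO2 and Mock cells (adjusted p = 0.25, limma) and -0.99 between the parental lines. Probe 1 stayed called under Lmo2 with normexp.

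Cdkn2b encodes p15Ink4b, an INK4 inhibitor that TGF-β is known to induce, and it lies next to Cdkn2a. Its probe 1 read -2.88 and -2.86 in pro-B(+), -3.05 and -2.99 in pro-B(-), -3.11 and -2.95 in Mock, and -2.13 and -2.25 in LMO2 arrays. The LMO2 arrays stood above all others, and the Mock and pro-B(-) arrays overlapped. Lmo2-transduced cells had 1.79-fold more signal than Mock cells (log2 difference 0.84, SE 0.07, adjusted p = 1.4e-04, limma). Probe 2 was well above background only in the LMO2 arrays (-4.48 and -4.47) and the pro-B(+) arrays (-5.19 and -5.12). Its measured signal was 2.82-fold higher in LMO2 than in Mock cells, where it was not well above background, and the log2 difference was 0.39 with normexp. Mock and pro-B(-) cells differed by -0.02 at probe 1 (95% interval -0.18 to 0.15, adjusted p = 0.85). The log2 difference of pro-B(+) from pro-B(-) cells was 0.15 at probe 1 and became -0.13 when arrays were scaled to their median. At probe 2, where pro-B(-) cells were not well above background, it was 0.54 (SE 0.20), and 0.22 with quantile normalization and 0.0096 with normexp.

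**Figure D1:**
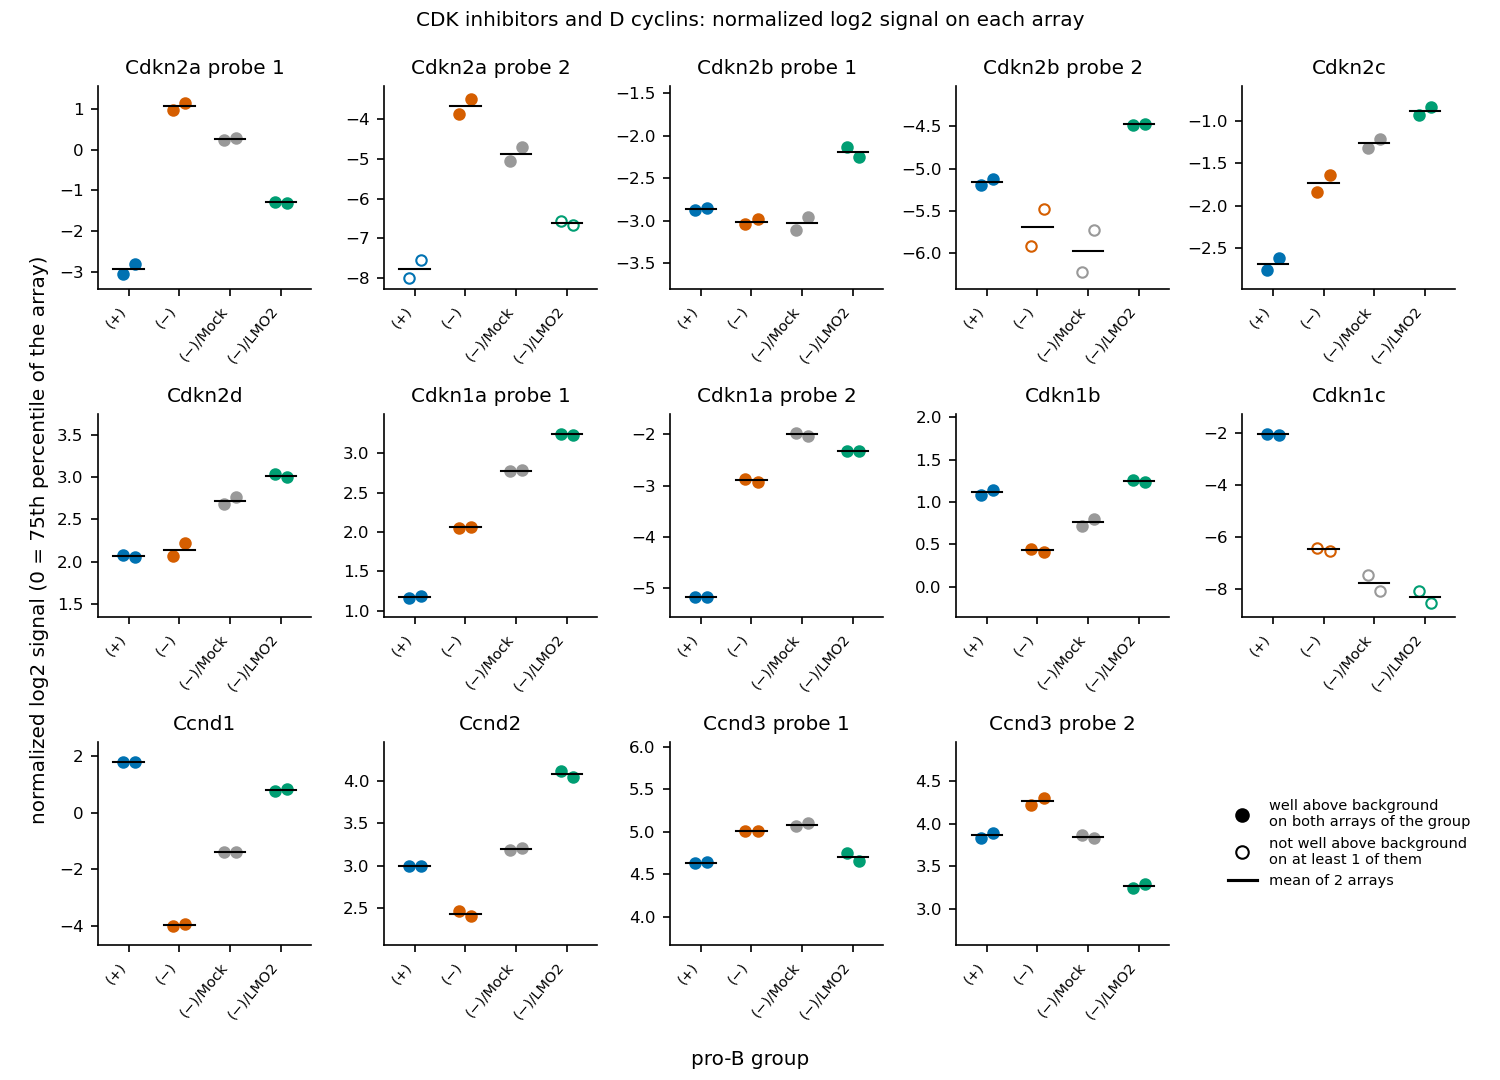
Normalized log2 signal (y axis, 0 is the 75th percentile of the array) of the 14 probes in the 4 groups (x axis), 1 point per array with a line at the mean; each panel has its own axis, so levels are not to be compared between panels. Cdkn2a probe 1 runs from -2.94 in pro-B(+) to 1.07 in pro-B(-) cells, Ccnd1 from -3.96 in pro-B(-) to 1.76 in pro-B(+) cells, and Cdkn1c is well above background in pro-B(+) cells only.

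Few chromosomal neighbours of Cdkn2a gave a signal on every array. Of the 10 protein-coding genes next to it (5 on each side in the order of the RefSeq annotation), Mtap, Cdkn2b and Zfp352 were well above background on all 8 arrays. Mtap, the methylthioadenosine phosphorylase gene beside Cdkn2a, differed by 0.35 between pro-B(+) and pro-B(-) cells (adjusted p = 0.0033) and by -0.57 between LMO2 and Mock cells (adjusted p = 2.7e-04, limma). The sign of Mtap was thus opposite to that of Cdkn2a in the parental lines and the same under Lmo2. The group means of Zfp352, a zinc finger gene, differed by -0.16 and -0.62 in the same comparisons. Klhl9, an adaptor of a ubiquitin ligase in the same region, differed by -0.29 under Lmo2 (adjusted p = 0.0023).

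**Figure D2:**
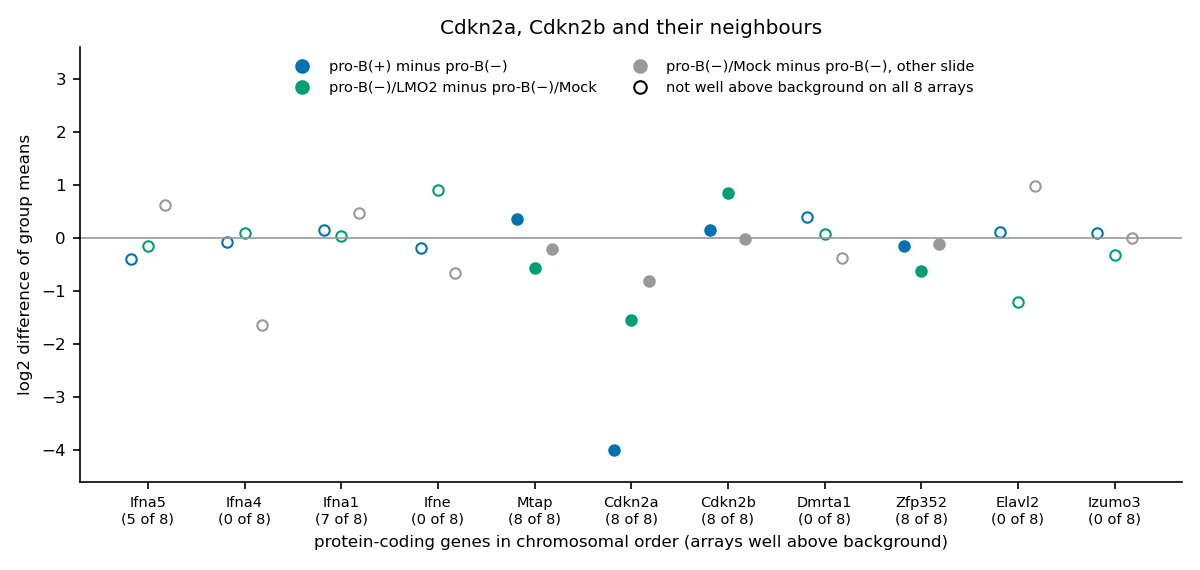
Log2 difference of group means (y axis) for Cdkn2a and the 5 protein-coding genes on each side of it, in chromosomal order (x axis, with the number of arrays well above background), each by its brightest probe; open points are genes not well above background on all 8 arrays. The fall of Cdkn2a in pro-B(+) cells, -4.00, stands beside 0.35 for Mtap, 0.15 for Cdkn2b and -0.16 for Zfp352.

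The other INK4 genes were lowest, or tied for lowest, in pro-B(+) cells. Cdkn2c, which encodes p18Ink4c, an inhibitor that limits expansion of lymphoid and stem cells, read -2.76 and -2.61 in pro-B(+), -1.84 and -1.64 in pro-B(-), -1.32 and -1.21 in Mock, and -0.93 and -0.84 in LMO2 arrays. The 4 groups did not overlap. LMO2 cells exceeded Mock cells 1.30-fold (log2 difference 0.38, SE 0.09, adjusted p = 0.011, limma). This call was lost without Mock replicate 1 (0.33, adjusted p = 0.063), without LMO2 replicate 2 (0.33, adjusted p = 0.061) and with median scaling (0.17, adjusted p = 0.11). Mock exceeded pro-B(-) cells by 0.47 (SE 0.09, adjusted p = 0.0057), and pro-B(+) cells lay 0.95 under pro-B(-) cells (SE 0.09), a 1.93-fold lower signal. Cdkn2d, which encodes p19Ink4d, read 2.08 and 2.06 in pro-B(+), 2.06 and 2.22 in pro-B(-), 2.67 and 2.76 in Mock, and 3.03 and 2.99 in LMO2 arrays. The parental lines overlapped, differing by -0.07 (SE 0.06), or by -0.35 with median scaling and 0.01 without pro-B(-) replicate 2. LMO2 cells were 1.23-fold above Mock cells (adjusted p = 0.0064), and with median scaling that difference fell from 0.30 to 0.09 (adjusted p = 0.26).

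Among the Cip/Kip genes, Cdkn1a encodes p21, a p53 target that inhibits CDK2. Its probe 1 read 1.16 and 1.18 in pro-B(+), 2.05 and 2.07 in pro-B(-), 2.77 and 2.78 in Mock, and 3.25 and 3.23 in LMO2 arrays. Signal thus rose in the order pro-B(+), pro-B(-), Mock, LMO2 with no overlap. LMO2 exceeded Mock cells 1.38-fold (log2 difference 0.46, SE 0.03, adjusted p = 7.0e-05, limma). Probe 2, which is annotated to another transcript variant, disagreed in this comparison. It read -5.18 and -5.18 in pro-B(+), -2.87 and -2.92 in pro-B(-), -1.97 and -2.03 in Mock, and -2.33 and -2.31 in LMO2 arrays. It was 1.25-fold lower in LMO2 than in Mock cells (log2 difference -0.32, SE 0.04, adjusted p = 6.9e-04), and the mean of both probes differed by 0.07 (adjusted p = 0.094). In the parental lines both probes were lower in pro-B(+) cells, by 1.85-fold and 4.86-fold, the latter with a log2 difference of -2.28 that became -1.20 with normexp. Mock cells exceeded pro-B(-) cells at both probes, by 0.72 and 0.90 (adjusted p = 2.6e-05 for each).

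Cdkn1b encodes p27, which holds cells in quiescence and is degraded as they enter the cycle. Its probe read 1.09 and 1.14 in pro-B(+), 0.45 and 0.41 in pro-B(-), 0.72 and 0.80 in Mock, and 1.26 and 1.23 in LMO2 arrays. LMO2 arrays were highest, with pro-B(+) arrays, on the other slide, 0.13 below them, and no groups overlapped. LMO2 cells had 1.40-fold more signal than Mock cells (log2 difference 0.49, SE 0.04, adjusted p = 2.2e-04, limma), or 0.28 with median scaling, where it was still called. Pro-B(+) exceeded pro-B(-) cells 1.60-fold (log2 difference 0.68, or 0.40 with median scaling), and Mock exceeded pro-B(-) cells 1.25-fold (adjusted p = 0.0016). Cdkn1c, an imprinted gene whose product p57 is known for keeping hematopoietic stem cells quiescent, was well above background only in pro-B(+) cells. It read -2.04 and -2.06 there, against -6.42 and -6.52 in pro-B(-), -7.47 and -8.08 in Mock, and -8.09 and -8.54 in LMO2 arrays. Its signal in pro-B(+) cells exceeded that in pro-B(-) cells at least 13.5-fold. The log2 difference was 1.97 with normexp, whose constant offset on every spot shrinks differences from dim groups, so it cannot test this bound. Cdkn1c was not tested between LMO2 and Mock cells, both of which were below background.

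D cyclins link cytokine and growth factor signals to the cycle. Ccnd1, the D cyclin least used by normal lymphoid cells, had the largest difference of the 14 probes in each of the 3 comparisons. Its probe read 1.77 and 1.76 in pro-B(+), -4.00 and -3.91 in pro-B(-), -1.40 and -1.37 in Mock, and 0.76 and 0.83 in LMO2 arrays. All groups were well separated, with LMO2 arrays 0.97 below pro-B(+) arrays on the other slide. Lmo2-transduced cells had 4.54-fold more Ccnd1 signal than Mock cells (log2 difference 2.18, SE 0.05, adjusted p = 1.3e-06, limma). Mock cells had 5.95-fold more than pro-B(-) cells (2.57, SE 0.05, adjusted p = 2.3e-06), which became 1.61 with normexp, and pro-B(+) cells 52.7-fold more than pro-B(-) cells (5.72, SE 0.05, or 4.42 with normexp).

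Ccnd2, the main D cyclin of early B-lineage cells responding to cytokines, read 3.00 and 3.00 in pro-B(+), 2.46 and 2.40 in pro-B(-), 3.19 and 3.20 in Mock, and 4.12 and 4.05 in LMO2 arrays. It was lowest in pro-B(-) cells and highest with Lmo2, with no overlap. The LMO2 cells exceeded Mock cells 1.85-fold (log2 difference 0.89, SE 0.04, adjusted p = 1.7e-05, limma), and Mock exceeded pro-B(-) cells 1.70-fold (adjusted p = 4.7e-05). Pro-B(+) exceeded pro-B(-) cells 1.48-fold, a log2 difference of 0.56 that became 0.28 with median scaling. Ccnd3, needed for the proliferation of pre-B and immature T cells, went the other way. Probe 1 read 4.63 and 4.64 in pro-B(+), 5.01 and 5.01 in pro-B(-), 5.06 and 5.11 in Mock, and 4.75 and 4.66 in LMO2 arrays. Probe 2, of another transcript variant, read 3.83 and 3.89, 4.23 and 4.30, 3.87 and 3.83, and 3.24 and 3.29 in the same order. Both probes fell under Lmo2, by 0.38 (adjusted p = 5.5e-04) and 0.58 (adjusted p = 1.3e-04), and both were lower in pro-B(+) cells than in pro-B(-), 1.30-fold and 1.32-fold. Between Mock and pro-B(-) cells they disagreed: probe 1 differed by 0.08 (95% interval -0.03 to 0.18, adjusted p = 0.18) and probe 2 by -0.42 (adjusted p = 7.9e-04).

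**Figure D3:**
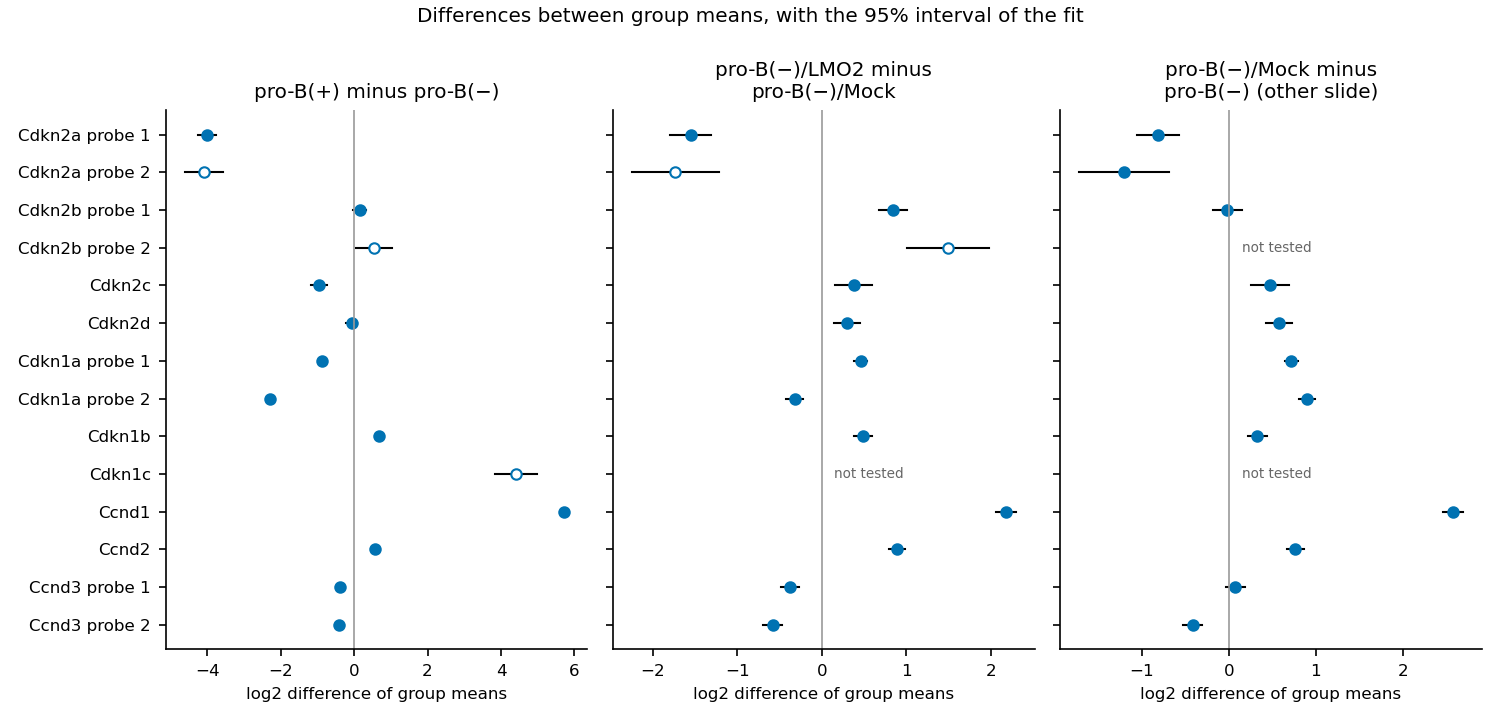
Log2 difference of group means (x axis) for the 14 probes (y axis) in the 3 comparisons, with the 95% interval of the fit; open points have a dimmer group not well above background on both arrays, where the text gives a bound or says that the dim group was not well above background. The horizontal scales differ between panels, the left panel is a description, and Ccnd1 lies highest in all 3 panels, at 5.72, 2.18 and 2.57.

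Under Lmo2, 13 of the 14 probes were tested, of which 8 were called higher and 5 lower at an adjusted p under 0.05. Cdkn2a probe 2 and Cdkn2b probe 2 entered the test only through the group in which they were bright, and without them 7 were called higher and 4 lower. Over all 22998 probes tested there, 64.8% were called (28.4% higher and 36.4% lower), so that a call by itself sets a gene little apart in this comparison. The median log2 difference of the 13 probes was 0.38, against -0.04 over all probes. Between Mock and pro-B(-) cells, leaving out Cdkn2a, 7 of the 10 probes tested were called higher, 1 lower and 2 neither, against 59.3% called among 23048 probes (28.5% higher and 30.8% lower). Between the parental lines, where no call is given for the 14 probes, 49.2% of 23468 probes were called (20.8% higher and 28.4% lower). Both comparisons with pro-B(-) cells share its arrays. Scaling to the median of each array moved the median difference of all probes from -0.04 to -0.33 in the parental lines and from -0.04 to -0.25 under Lmo2. The share of calls that were higher then moved from 42.3% to 15.9% and from 43.8% to 24.6%. Under that scaling 6 probes were called higher under Lmo2 (Cdkn2c and Cdkn2d were lost) and 5 lower.

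The partners of these genes were described by lists chosen with earlier results of these data known, taking the brightest probe of each gene. Of 24 genes of the G1/S machinery tested, 17 were called lower and 4 higher under Lmo2, with a median of -0.38, against 37.8% lower and 31.1% higher among 12927 genes tested. Cdk2 differed by -0.80 (adjusted p = 1.9e-04), Ccna2, its S-phase cyclin, by -0.80 (1.1e-05), Cks1b, a cofactor in the degradation of p27, by -0.73 (1.2e-04), Cdk4 by -0.44 (2.6e-04) and Ccne1 by -0.30 (adjusted p = 0.015). Cdk6 differed by 0.09 (adjusted p = 0.41). Rb1, the substrate of the D cyclin kinases, rose 2.17-fold (log2 difference 1.11, adjusted p = 7.6e-06), and its relative Rbl2 rose by 0.50 (adjusted p = 4.5e-04). The counts were 19 lower and 2 higher with median scaling and 16 lower and 4 higher with quantile normalization. Of all 22998 probes tested, 12446 were called lower and 4054 higher with median scaling.

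Proliferation genes were lower in Lmo2-transduced than in Mock cells throughout the list. All 18 tested were called lower, with a median of -0.57 and a range from -1.10 (Tk1, thymidine kinase) to -0.31. Aurka, a mitotic kinase, differed by -0.92 (adjusted p = 2.1e-05), Cdk1 by -0.77 (9.4e-05) and Mki67 by -0.35 (2.5e-04). All 18 were also called lower with median, quantile and normexp processing, with medians of -0.78, -0.39 and -0.59. Between pro-B(+) and pro-B(-) cells, 14 of the 18 were not called and 4 were called lower, with a median of -0.03, beside 27.1% lower and 25.6% higher among 13219 genes. That count depended on the scaling: 17 were called lower with median scaling, and 2 lower and 4 higher with quantile normalization. Of all 23468 probes tested there, 15644 were called lower with median scaling. Of the G1/S machinery, 7 were called lower and 2 higher of 24 tested in that comparison, from -0.95 for Cdk6 (adjusted p = 4.1e-04) to 0.65 for E2f5, with Rb1 1.52-fold higher (1.0e-04). With median scaling 21 were called lower, beside the same 15644 of all probes.

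**Figure D4:**
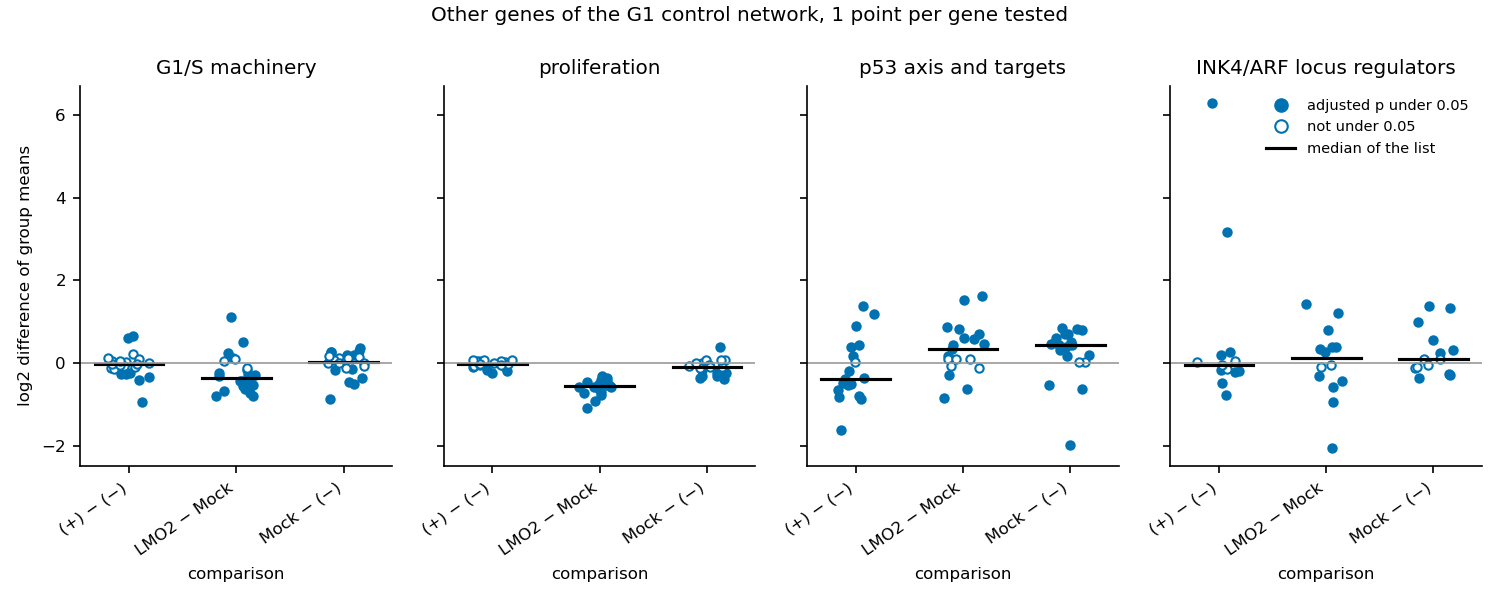
Log2 difference of group means (y axis) for the genes tested in 4 lists, in the comparisons pro-B(+) minus pro-B(-), LMO2 minus Mock and Mock minus pro-B(-) (x axis); each point is a gene by its brightest probe, filled where the adjusted p was under 0.05, and the line is the median. All 18 proliferation genes lie below 0 under Lmo2, with a median of -0.57.

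The p53 axis, through which p19Arf and Cdkn1a are connected, was described by its regulators and targets. In the parental lines 12 of 19 genes tested were called lower in pro-B(+) cells and 6 higher (median -0.39), against 27.1% lower and 25.6% higher among all genes. With median scaling 14 were lower and 3 higher, beside 15644 lower and 2949 higher of all 23468 probes. Zmat3, an RNA-binding p53 target, was 3.09-fold lower in pro-B(+) cells (adjusted p = 1.1e-06), followed by the pro-apoptotic Bbc3 (1.84-fold, 1.8e-05) and the stress-induced Trp53inp1 (1.78-fold, 1.7e-05). Perp, a desmosomal p53 target, was 2.59-fold higher (adjusted p = 1.2e-04), Btg2, an antiproliferative gene, 1.85-fold higher (3.9e-05), and Trp53 itself differed by 0.02 (adjusted p = 0.84). Under Lmo2 11 of 19 were called higher and 3 lower (median 0.33), beside 31.1% higher and 37.8% lower among all genes. With median scaling 9 were higher and 6 lower there, beside 4054 higher and 12446 lower of all 22998 probes, and the list median fell to 0.12. Pmaip1, a BH3-only gene, rose 3.07-fold (adjusted p = 7.3e-06), Btg2 2.87-fold (4.1e-06) and Trp53 1.26-fold (0.0066). Those called lower were Perp (1.79-fold, adjusted p = 5.4e-04), Aen (1.54-fold, 3.3e-05) and Polk (1.22-fold, 0.0044). Mdm2, the p53 ubiquitin ligase, differed by 0.09 (adjusted p = 0.098). Between Mock and pro-B(-) cells 14 of 19 were called higher and 3 lower (median 0.42), against 30.9% higher and 29.9% lower among 12898 genes.

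Known regulators of the Cdkn2a locus did not move in 1 direction. Bmi1, the Polycomb repressor, was 1.94-fold lower in LMO2 than in Mock cells (adjusted p = 3.7e-05) and differed by -0.23 between pro-B(+) and pro-B(-) cells (adjusted p = 0.015). Ets2, an activator of the p16Ink4a promoter, was 4.20-fold lower under Lmo2 (adjusted p = 1.6e-06) and 1.70-fold lower in pro-B(+) cells (7.3e-05). Hmga2, a chromatin protein of fetal stem cells known to repress the locus, was 77.9-fold higher in pro-B(+) cells than the pro-B(-) level (adjusted p = 8.7e-07), 2.31-fold higher in LMO2 than in Mock cells (2.5e-04) and 2.00-fold higher in Mock than in pro-B(-) cells (8.4e-04). Id1, an inhibitor of E proteins that restrains p16Ink4a, was 8.95-fold, 1.73-fold and 2.61-fold higher in the same 3 comparisons, in that order. In all, 7 of 14 genes tested were called higher and 5 lower under Lmo2, with a median of 0.11 that turned to -0.10 with median scaling. In the parental lines 4 of 13 were higher and 5 lower, and between Mock and pro-B(-) cells 6 of 14 higher and 3 lower. Over all genes 31.1% were called higher and 37.8% lower under Lmo2, 25.6% and 27.1% in the parental lines, and 30.9% and 29.9% in the last comparison. Among regulators of Cdkn1b and the D cyclins, Foxo1, a direct activator of Cdkn1b, was 3.34-fold higher in pro-B(+) cells than in pro-B(-) and 3.20-fold higher in LMO2 than in Mock cells (adjusted p = 0.0030 and 0.0020). It was 1.93-fold lower in Mock than in pro-B(-) cells (log2 difference -0.95, SE 0.26, adjusted p = 0.023), where Cdkn1b was 1.25-fold higher. A link between Foxo1 and Cdkn1b was not tested. Foxo3, another FOXO factor, differed by -0.28 in the parental lines (adjusted p = 0.032) and by 0.71 under Lmo2 (5.1e-04). Of these regulators 3 of 7 were called higher and 2 lower in the parental lines, 5 of 8 higher and 1 lower under Lmo2, and 1 of 7 higher and 2 lower in Mock against pro-B(-) cells.

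Markers of cells other than pro-B cells moved with some of these values. The summed level of 25 stromal markers (sum of linear signals, in units of the 75th percentile) was 35.9 to 36.2 in pro-B(+), 16.4 to 16.9 in pro-B(-), 35.7 to 36.9 in Mock and 45.4 to 46.5 in LMO2 arrays. Of them 20 of 21 tested were called higher in pro-B(+) cells than in pro-B(-), 13 of 22 higher and 4 lower under Lmo2, and 19 of 22 higher and 1 lower in Mock against pro-B(-) cells, beside the 25.6%, 31.1% and 30.9% of all genes called higher. In the last of these, in which Ccnd1 was 5.95-fold higher, Timp1 was 13.1-fold and Acta2 11.6-fold higher (adjusted p = 4.6e-06 and 8.7e-07). Lum, Dcn and Col5a2 were not well above background on any array, whereas Col1a2, Sparc and Fn1 were on all 8. Fibroblasts are known to express Ccnd1 and Cdkn1a, and the part of stromal RNA in the values of Ccnd1, Cdkn1a, Cdkn1c and Cdkn2b was not tested. Summed myeloid markers (16 genes) were 129 to 131 in pro-B(+), 80.7 to 89.7 in pro-B(-), 77.2 to 79.2 in Mock and 80.3 to 85.7 in LMO2 arrays, with S100a8 and S100a9 well above background in pro-B(+) arrays only. Sums weigh bright probes most, and by gene 13 of 16 were called higher in pro-B(+) cells and 1 lower (median 3.48), and 6 of 13 higher and 3 lower under Lmo2 (median 0.45). Lyz1, a lysozyme gene, was 95.2-fold higher in pro-B(+) cells and 26.7-fold higher under Lmo2 (adjusted p = 2.4e-07 and 3.3e-07). Mpo, myeloperoxidase, was 10.7-fold and 20.9-fold higher (2.7e-07 and 1.8e-07). The 3 called lower under Lmo2 were Adgre1 (2.32-fold, adjusted p = 1.7e-05, limma), Ctsg (5.11-fold, 0.0041) and Csf3r (log2 difference -0.27, 0.014). Ctsg entered this test only through its bright group, Mock. Elane, Itgam, Cebpe and Fcgr3 were not called under Lmo2. Summed T-lineage markers (10 genes) were 33.0 to 35.1, 52.7 to 55.9, 62.3 to 63.0 and 51.4 to 52.3 in the same order, whereas by gene 5 of 10 were called higher and 3 lower in pro-B(+) cells (median 0.39), and 6 higher and 2 lower under Lmo2 (median 0.44). Tcf7, Cd3d, Cd3g and Il2ra in pro-B(+) cells, and Tcf7, Cd3g and Il2ra under Lmo2, entered these tests only through the bright group. Tcf7 and Il2ra were above background in pro-B(+) and LMO2 cells only. Bcl11b was 1.69-fold lower in pro-B(+) cells and 8.54-fold lower under Lmo2, and Thy1 1.99-fold and 1.81-fold lower. Lck was 1.23-fold lower in pro-B(+) cells. Summed erythroid markers (5 genes) were 13.8 to 22.1 over all arrays, with Alas2 not above background on any. The part of these cells in the members' values was not tested either.

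Of the members, 5 had probes above background on all 8 arrays and group means spanning over 1 log2 unit, and for these the genes of most similar profile were sought among 11641 genes, as the smallest root mean square difference of centred values over 8 arrays. The nearest to Cdkn2a were Ccno (0.46), Esm1 (0.51) and Psd3 (0.52). For Ccnd1 they were Ifitm3 (0.40), Ctsh (0.53) and Emp1 (0.57). Cdkn1a was matched more closely, by Sapcd1 (0.06), Mfsd10 (0.07) and Zfhx3 (0.08), and so were Cdkn2c by Tmem14a, Plvap and Zfp580 (0.07 to 0.10) and Ccnd2 by Nol4l, Hvcn1 and Tecpr1 (0.07 to 0.08). The group means of Ccnd1 spanned 5.72 log2 units, and those of Cdkn1a, Cdkn2c and Ccnd2 1.65 to 2.07.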

How the data were processed

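Total RNA was labelled with Cy3 and hybridised to Agilent whole mouse genome arrays (8 arrays, 4 groups of 2), and the deposited scanner files came from Agilent Feature Extraction 11.5.1.1. The authors' software subtracted the background to give the processed intensity of each spot, which was deposited with its flags. The authors' own log2 values, deposited as a matrix after 75th percentile normalization in GeneSpring, differed from these by a constant per array and served as an alternative.

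Control spots and outlier spots were left out, which removed 51 of 39429 probes, and the log2 spots of a probe were averaged. Values are log2 intensity minus the 75th percentile of the array. Probes were named through transcript accessions matched to a RefSeq table (GRCm38.p6), which named 26550 probes. Since the design uses mm9 coordinates, none are given for probes. Probes of a gene are numbered by mean signal, and all member probes are given. No spot was saturated, and the 75th percentile of the intensity was 604 to 949. The number of arrays limits the precision.

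All arrays entered 1 fit of 4 group means (lmFit and eBayes, limma 3.58.1, R 4.3.3, 4 residual degrees of freedom). Tested probes had to pass the scanner's background flag on both arrays of 1 or both groups compared, and were called at a Benjamini-Hochberg adjusted p under 0.05 over all probes tested. Counts over lists and over all genes thus include genes that entered only through the group in which they were bright. A few markers of the cell type lists are not reported here and were left out of the sums. The members and lists were chosen with earlier results of these data known. Besides the members and some fixed G1 genes, genes were named where they were among the 5 with the largest change in each direction, per list and comparison, among called genes above background on all arrays compared. Alternatives were median scaling, quantile normalization, the deposited values, normexp (offset 50, median spot signal, local background over 100 replaced), other filters, the replicate block, own arrays, an intensity trend, mean of probes and leaving out each array.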

Additional observations from a re-analysis of the deposited data

How the results depend on the processing

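The calls of the 13 member probes tested under Lmo2, among them the 2 that were bright in 1 group only, kept their direction in 217 of 223 repeats over all alternatives, and the other 6 missed the threshold: Cdkn2c and Cdkn2d with median scaling, Cdkn2c without Mock replicate 1 and without LMO2 replicate 2, Cdkn2a probe 2 with normexp, and Cdkn1a with the mean of its probes. In many of these repeats the log2 difference could not change, only its adjusted p, so the count says little about direction. These were the filters, the replicate block, own arrays, the intensity trend and leaving out a pro-B(+) or pro-B(-) array. The deposited values differed only by a constant per array. Median scaling raised the calls between pro-B(+) and pro-B(-) cells from 11548 to 18593. Without a filter on dim probes 2 member probes were called lower in Mock than in pro-B(-) cells, the added one being Cdkn1c, which was below background in both. Cdkn2b probe 1 changed sign between pro-B(+) and pro-B(-) cells to -0.13 (median scaling) and -0.025 (quantile normalization), and between Mock and pro-B(-) cells to 0.0020 (median scaling) and 0.030 (normexp), with a range from -0.095 to 0.062 when 1 array was left out. Ccnd3 in Mock against pro-B(-) cells turned from 0.08 at probe 1 to -0.17 (adjusted p = 0.0076) with the mean of its probes. Leaving out 1 array at a time gave 8801 to 11193 calls between the parental lines, 13089 to 14815 under Lmo2 and 10972 to 13300 for Mock against pro-B(-) cells, with 7 to 8 member probes higher and 5 lower under Lmo2; the lone array of a group was then assumed to vary like the other groups. Fitted on its own 4 arrays, which lie on 1 slide, each of the first 2 comparisons gave 10150 and 14551 calls. Slide as a block was not run, since each slide holds both arrays of its groups: within a slide it changes nothing and between slides it cannot be told apart from the groups. Replicate numbers are shared by the groups, but same-numbered arrays did not deviate together (correlations from -0.03 to 0.05), so they share only a number; with the replicate block 11294, 14693 and 13296 probes were called in the 3 comparisons and no member call changed. Apart from the offset of normexp, which shrinks the differences of dim probes, the cause of these dependences was not tested. Dim probes (Cdkn1c, and probe 2 of Cdkn2a and of Cdkn2b) are limited by their signal over background.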
